A study of Mus musculus with 18 samples.

Results

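The genes described here take part in the response of a cell to virus and to interferon. They were 9 genes, taken by symbol: the RNA sensors Ddx58 and Ifih1, the transcription factors Irf1 and Irf7, and the antiviral effectors Isg15, Ifit1, Ifit3, Bst2 and Rsad2. All 9 were found in the GENCODE annotation of mm9, among its 22380 protein-coding genes. Each was examined over its gene body with 10 kb on both sides, called its window below.

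When the sensors bind viral RNA in the cytoplasm, they signal through the adaptor MAVS to kinases that activate interferon regulatory factors, and the cell secretes interferon. Interferon then acts through its receptors and JAK kinases, and the transcription factors activated in this way bind short GAAA repeats, the interferon-stimulated response element (ISRE), in the promoters of interferon-stimulated genes. KAP1, the product of Trim28, is a corepressor that KRAB zinc finger proteins bring to DNA, where the methyltransferase SETDB1 can deposit H3K9me3. H3K27ac is a mark of active promoters and enhancers, and H3K9me3 is a mark of silent chromatin.

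ChIP-seq of H3K27ac and of H3K9me3 was performed on mouse embryonic fibroblasts (MEF) of C57BL/6 background by the labels, C57BL/6J in the methods. The control cells, labelled WT, carried Kap1 loxP/loxP alleles and so were not free of the modified locus, and the other cells were Kap1 KO. KAP1 and SETDB1 were mapped in Hepa 1.6, a hepatoma line of C57L mice that was WT for Kap1. Each mark or factor had 1 library per condition, so there is no replicate spread and no p-value for any difference below. The methods describe a KO clone kept over many passages for RNA-seq, and whether the ChIP-seq used that clone is not given in the sources used here, so the deletion cannot be told apart from other differences between the cultures.

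The authors deposited peak positions, each with a score, in place of read counts. The scale of the score is not given in the sources used here, so it serves to rank peaks, and the depth of the libraries is unknown. The WT list of H3K27ac held 36275 peaks with a median score of 686.33, and the Kap1 KO list held 36436 with a median of 575.6. The score 3100 was shared by 27.5% of WT peaks and 21.2% of Kap1 KO peaks. It is not an upper limit, since 217 WT and 280 Kap1 KO peaks had higher scores, up to 3233.06 in both lists, but peaks that share it cannot be ordered. Because the median score was lower in the Kap1 KO library, the highest promoter score of each of the 9 genes is given with its rank, the share of its own list with a lower score, where it lies under 3100. The H3K9me3 lists held 14425 peaks in WT and 4319 in Kap1 KO MEF. The KAP1 list held 13366 peaks, and the 2957 entries of the SETDB1 list were all entries of the KAP1 list as well.

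The label of the MEFs was checked against promoter H3K27ac. A promoter had a peak when a peak shared at least 1 bp with the 1 kb on both sides of any annotated transcript start of the gene. Of 10 fibroblast markers, 9 had a promoter peak in both genotypes, among them Col1a1, Col1a2 and Col3a1, while Postn had none. Over all protein-coding genes, 51.9% had this state. The windows of the fibroblast markers were not alike in the genotypes, however. Bases under H3K27ac peaks were lower in Kap1 KO past 1.5-fold at 3 of the 10 and higher at 0. Over all genes with a peak in either genotype, 14.3% were lower and 10.8% higher. The 3 were Col1a1 with 28471 bp in WT and 16980 bp in Kap1 KO, Col1a2 with 24590 and 14579 bp, and Pdgfra with 6237 and 4131 bp. By less than 1.5-fold, Vim, Thy1, Pdgfrb, Fbn1 and Postn had more bases in Kap1 KO, and Col3a1 and Fn1 had fewer. None of the 7 hepatocyte markers and none of the 6 embryonic stem cell markers had a promoter peak in either genotype. Over all genes, 54.5% had one in WT and 53.3% in Kap1 KO. All 8 genes of a housekeeping list had a promoter peak in both genotypes, so such a peak alone does not mark fibroblasts. Of 10 immune markers, Cd14 and Cd68 had a promoter peak in both genotypes, Csf1r, the receptor of a macrophage growth factor, had one in Kap1 KO only, and the other 7, with the pan-leukocyte gene Ptprc, had none. The Csf1r promoter peak had a score of 229.28, and its window had 6223 bp under Kap1 KO peaks and 0 bp under WT peaks. Of the 10 immune markers, 5 had a peak in the window. Bases under peaks were higher in Kap1 KO past 1.5-fold at 2 of these, Csf1r and Itgam (1070 and 2436 bp). They were lower at 1, Ptprc (2243 and 1284 bp), beside 10.8% higher and 14.3% lower over all genes with a peak. By less than 1.5-fold, Cd14 had more bases in Kap1 KO and Cd68 had fewer. The part of these differences in cell type markers in the results below was not tested. Trim28, the deleted gene, had a promoter peak with a score of 3100 in both genotypes, which checks nothing about the deletion, since the mark at the promoter does not read the deleted part.

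In WT MEF, 7 of the 9 interferon response genes had a promoter H3K27ac peak, and in Kap1 KO MEF 8 did. Over all protein-coding genes these shares were 54.5% and 53.3%. The 7 genes with a promoter peak in both genotypes, the state of 51.9% of all genes, were Ddx58, Ifih1, Irf1, Irf7, Ifit1, Ifit3 and Bst2. Isg15 had one in Kap1 KO only, a state that 1.36% of all genes had, and Rsad2 had none in either genotype. No member had a promoter peak in WT only, the state of 2.61% of all genes.

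Presence of a peak was therefore alike in the genotypes for most of the genes, but the scores were not. Among the 7 genes with a promoter peak in both genotypes, the score was lower in Kap1 KO at 5 and higher at 1, Ifit1. Irf1 had 3100 in both. Of the 11622 protein-coding genes with a promoter peak in both, the score was lower in Kap1 KO at 36.1% and higher at 7.53%, and of the 6551 genes with equal scores 6550 stood at 3100. Of the 5071 genes with unequal scores, 82.7% were lower in Kap1 KO, so that 5 of the 6 such members is near the share of all genes. Under 3100, the rank within the list can be compared. It was lower in Kap1 KO at 5 of the 6 members with both scores under 3100, and at 59.4% of the 2740 such genes in all.

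**Figure D1:**
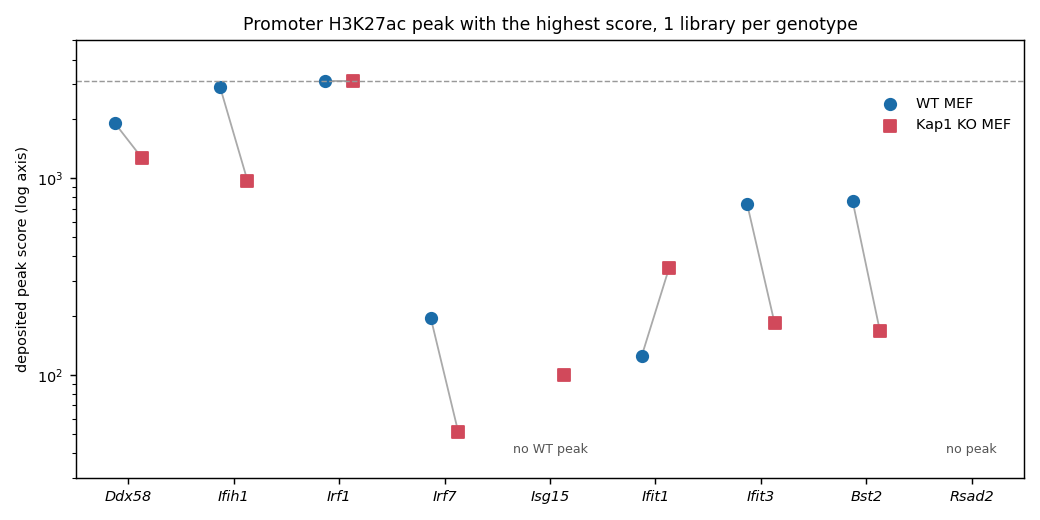
Score of the promoter H3K27ac peak of each gene on a log axis, in WT MEF (circles) and Kap1 KO MEF (squares), with 1 library per genotype and therefore no error bar. The dashed line marks the score of 3100. The score is lower in Kap1 KO at Ddx58, Ifih1, Irf7, Ifit3 and Bst2, higher at Ifit1, and present in Kap1 KO only at Isg15.

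Ddx58 encodes RIG-I, a helicase that senses RNA with a 5′ triphosphate. It lies on the minus strand of chromosome 4 from 40150806 to 40186861. The WT promoter peak, from 40185203 to 40187719, had a score of 1906.22, above 64.3% of the list. The Kap1 KO peak, from 40185347 to 40187787, had a score of 1262.26, above 62.5% of its list. These ranks are close to each other, and the widths, 2517 and 2441 bp, are too. It was the only H3K27ac peak of the window in each genotype, and no H3K9me3 peak lay there.

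Ifih1 encodes MDA5, the helicase that senses long double-stranded RNA. Its gene body spans chromosome 2 from 62433850 to 62484312 on the minus strand. In WT MEF its promoter peak covered 62483162 to 62485233 with a score of 2902.79 and a rank of 70.8%. In Kap1 KO MEF it covered 62483306 to 62484929 with a score of 970.67 and a rank of 58.4%. Thus Ifih1 lay lower in the Kap1 KO list than Ddx58 did, although it lay higher in the WT list. Both sensors kept a single promoter peak and had no other H3K27ac peak within 10 kb, and the width of the Ifih1 peak was 2072 bp in WT and 1624 bp in Kap1 KO.

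Irf1 is a transcription factor that interferon gamma induces, and its window had the most bases under H3K27ac peaks of the 9 in both genotypes. Its body lies on chromosome 11 from 53583516 to 53591876 on the plus strand. The promoter peak ran from 53582544 to 53585216 in WT and from 53582481 to 53585435 in Kap1 KO, with a score of 3100 in both. A second peak with that score lay upstream, between genes, from 53571680 to 53579081 in WT and from 53571327 to 53579009 in Kap1 KO. These wide peaks were shared by the genotypes. A weak peak downstream of the gene, from 53593058 to 53594228 with a score of 109.35, was found in WT only.

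Irf7, the factor that amplifies the production of interferon, had a much weaker promoter peak than Irf1. It lies on chromosome 7 from 148448605 to 148452380 on the minus strand. The WT peak, from 148451515 to 148452771, had a score of 193.5 and a rank of 28.3%. The Kap1 KO peak, from 148451738 to 148452659, had a score of 51.17 and a rank of 0.412%, next to the lowest score of that list, 50.01. This peak did not reach the score of 80 that the methods give as a cutoff, and with that cutoff Irf7 counts as WT only.

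Among the effectors, Isg15 encodes a ubiquitin-like protein that is joined to other proteins after interferon. The gene is short and lies on chromosome 4 from 155573533 to 155574927 on the minus strand. In Kap1 KO MEF a promoter peak lay over its start from 155574307 to 155575519, with a score of 99.77 and a rank of 15.1%. In WT MEF the nearest peak ended 2074 bp from the start of Isg15. That peak, from 155570254 to 155572853, covered a transcript start of the neighbour Agrn with a score of 3100, and its Kap1 KO counterpart, from 155570531 to 155572926, had a score of 961.62. The promoter of Isg15 and that of its neighbour therefore moved in opposite directions between these libraries.

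Ifit1 encodes a protein that binds viral RNA, and it lies on chromosome 19 from 34715361 to 34724499 on the plus strand. The WT promoter peak, from 34714718 to 34715793, had a score of 124.74 and a rank of 19.6%. The Kap1 KO peak, from 34714545 to 34716155, had a score of 349.63 and a rank of 41.2%. Both covered also the start of 2010002M12Rik, which is transcribed the other way from a start 128 bp upstream, so that the peak cannot be given to one gene of the pair. Ifit1 was the only one of the 7 genes whose promoter peak had a higher score in Kap1 KO.

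Ifit3, a relative of Ifit1 in the same gene cluster, went the other way. It lies on chromosome 19 from 34658021 to 34663221 on the plus strand. Its promoter peak had a score of 737.46 and a rank of 51.0% in WT, from 34656812 to 34658600. In Kap1 KO it had a score of 183.41 and a rank of 28.5%, from 34657002 to 34658448. In WT the window held 3 more peaks, and the Kap1 KO list had none of them. These were a peak in an exon of Ifit2 from 34648656 to 34649880 with a score of 134.44, one between the genes from 34651409 to 34652356 with 67.35, and one in an intron of Ifit3 from 34660039 to 34661456 with 106.95. Bases under a peak numbered 5380 in WT and 1447 in Kap1 KO, the lowest ratio among the genes with peaks in both genotypes, 0.269.

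Bst2 encodes tetherin, which holds budding virus at the cell surface. It lies on chromosome 8 from 74058163 to 74061336 on the minus strand. The WT promoter peak, from 74060766 to 74062386, had a score of 765.72 and a rank of 51.6%. In Kap1 KO the peak over the start, from 74060981 to 74062413, had a score of 166.6 and a rank of 26.3%. A further Kap1 KO peak, from 74059896 to 74060731, had a score of 51.51 and lay 35 bp from the WT promoter peak, so that it counts as Kap1 KO only by the rule although it adjoins marked bases. Peaks downstream of the gene were found in WT only, from 74049573 to 74051968 with a score of 232.99 and from 74054375 to 74055601 with 165.02. The strongest peak of the window belonged to the start of the neighbour Fam125a, with scores of 2960.99 in WT and 1836.14 in Kap1 KO.

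Rsad2 encodes viperin, an antiviral enzyme, and lies on chromosome 12 from 27127618 to 27141317 on the minus strand. Its window held no WT H3K27ac peak, and the nearest WT peak was 1035087 bp from the gene. The Kap1 KO list held 1 peak in the window, from 27144574 to 27145586, with a score of 88.12 and a rank of 12.4%. It lay 3257 bp upstream of the Rsad2 start, between Rsad2 and Cmpk2, an interferon-stimulated kinase gene that is transcribed the other way and whose promoter had no peak in either genotype. Rsad2 thus shared with Isg15 a weak Kap1 KO peak, but away from the promoter.

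Over the 9 windows, 16 H3K27ac peaks were found in WT and 13 in Kap1 KO. A peak that shared no base with one of the other genotype was called only: 6 peaks were WT only and 3 were Kap1 KO only. The WT only peaks lay at Ifit3, Bst2 and Irf1, and the Kap1 KO only peaks at Isg15, Bst2 and Rsad2. Thus 3 of 9 windows had a WT only peak, against 19.9% of all protein-coding genes, and 3 of 9 had a Kap1 KO only peak, against 16.2%. These windows had a median length of 28361 bp, shorter than the median of 35420.5 bp over all genes.

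The bases of the 9 windows under a peak summed to 31847 in WT and 25526 in Kap1 KO, a ratio of 0.802. Over all windows the ratio of such sums was 0.941. The other 7 windows without Ifit3 and Bst2, a choice made after seeing the data, had 18932 bp in WT and 19669 bp in Kap1 KO, a ratio of 1.04. Ifit3 and Bst2 had the lowest ratios of the windows with peaks in both genotypes, 0.269 and 0.585. Leaving them out must therefore raise the ratio, and the value of 1.04 shows only that the lower sum depends on them. A change past 1.5-fold was called at 3 genes. It was higher in Kap1 KO at Rsad2, from 0 to 1013 bp, and 10.8% of the 15868 genes with a peak in either genotype were called higher. It was lower at Ifit3 and at Bst2, from 7535 to 4410 bp, where 14.3% were called lower. With 5 kb on both sides Bst2 was no longer called, with 3215 bp in WT and 2632 bp in Kap1 KO, and with scores of at least 80 Irf7 was called lower too, from 1257 to 0 bp. Ifit1, with 1076 bp in WT and 1611 bp in Kap1 KO, stayed just short of that limit, and Isg15 went from 2600 to 3609 bp. The effectors therefore included both directions, while both sensors and both transcription factors had fewer bases under peaks in Kap1 KO, by less than 1.5-fold. For Irf1 this turned when only the upper 50% of scores was kept, which removes its weak WT only peak, with 8239 bp in WT and 8449 bp in Kap1 KO.

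**Figure D2:**
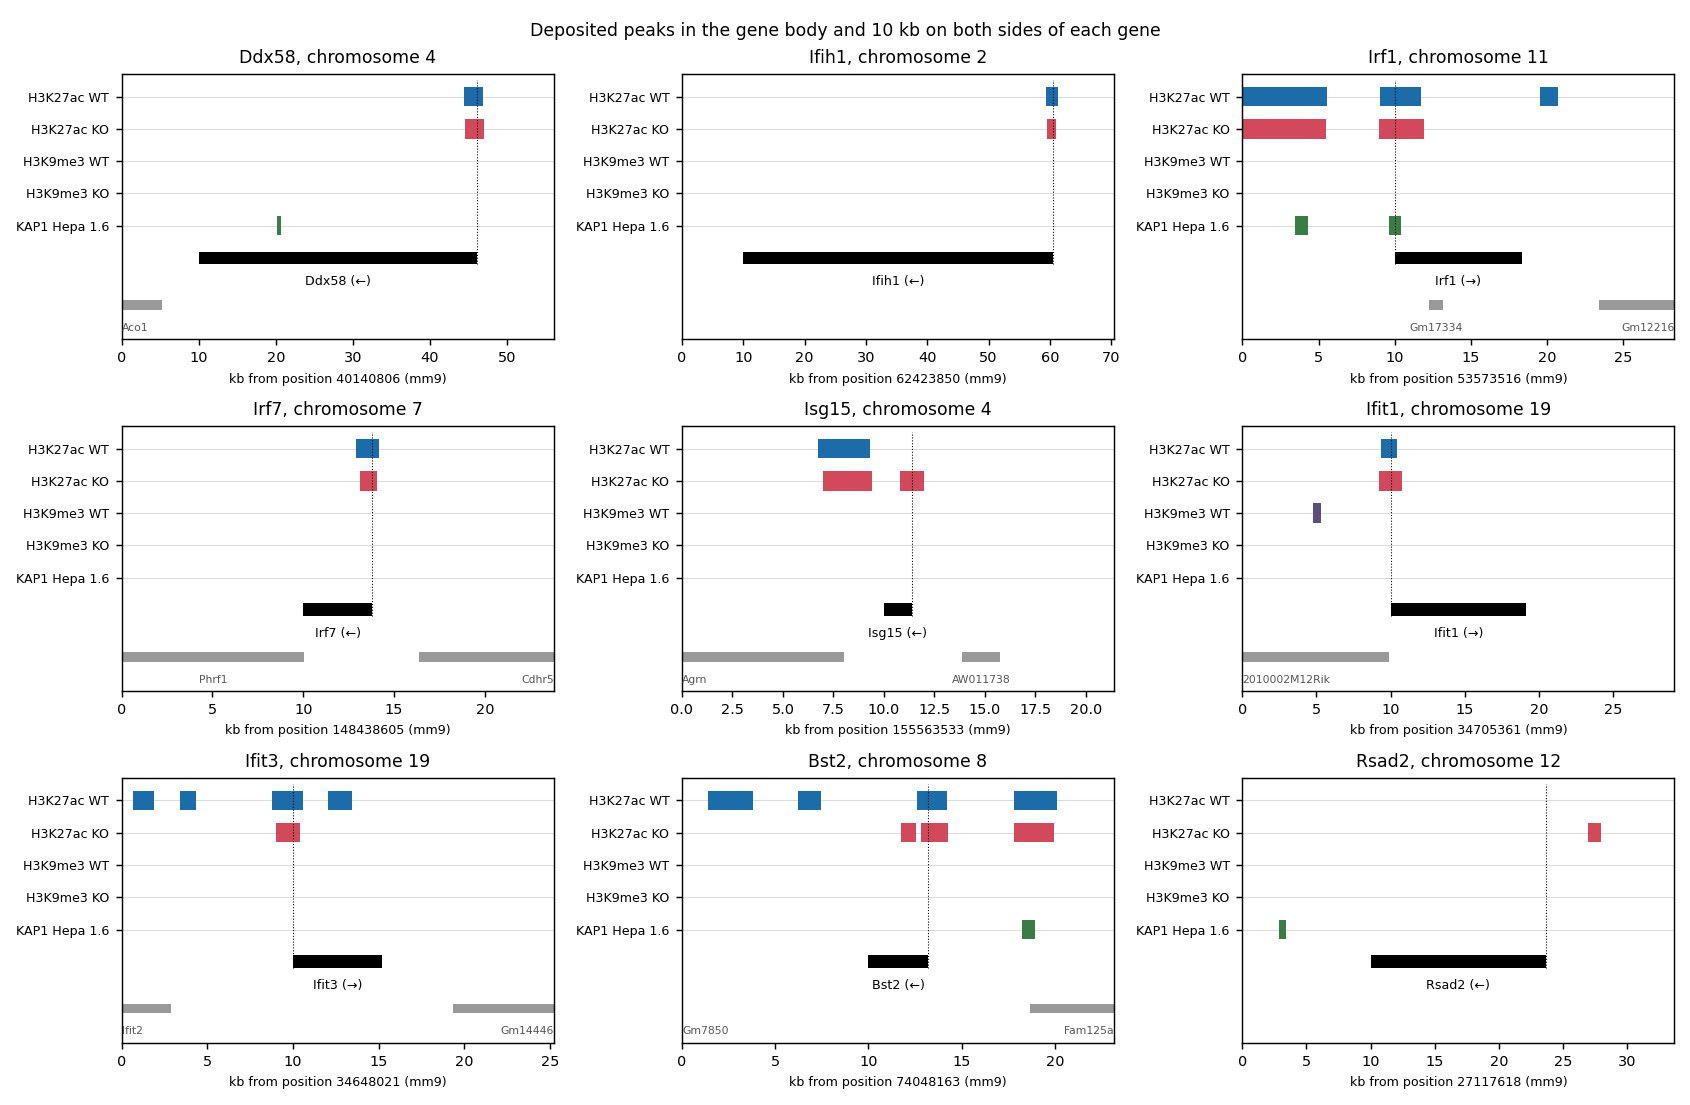
Peaks of each list along the gene body and 10 kb on both sides of each gene, drawn to scale in kb on mm9, with the gene in black, its direction as an arrow, its start as a dotted line and other annotated genes in grey. Kap1 KO MEF have a peak at the Isg15 start and upstream of Rsad2 where WT MEF have none, and WT MEF have 3 more peaks around Ifit3.

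In WT MEF, 1 of the 9 windows had an H3K9me3 peak, that of Ifit1, and 19.0% of all protein-coding genes did, so that the members stood near the share of all genes. The peak lay in an intron of 2010002M12Rik from 34710118 to 34710677, 4684 bp upstream of the Ifit1 start, with a score of 93.91 and a rank of 60.7%. When the WT list was shortened to the 4319 peaks of the Kap1 KO list, a setting chosen after seeing the data, this peak was lost and 0 of the 9 windows had one in either genotype. In Kap1 KO MEF, 0 of the 9 windows had a peak, and 3.36% of all genes did, in a list that was shorter as a whole. Isg15 had its nearest WT H3K9me3 peak at 38217 bp and Rsad2 at 393360 bp. Over the 9 genes that distance had a median of 46897 bp, and over all genes of 68064 bp.

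KAP1 peaks of Hepa 1.6 cells were found in 4 of the 9 windows, against 35.8% of all protein-coding genes. Since these cells are of another type than the MEFs, binding in MEFs was not analysed here. At Irf1, a peak from 53583152 to 53583898 with a score of 184 covered the promoter, and another from 53576942 to 53577811 with a score of 142 lay under the upstream H3K27ac peak. At Bst2 the peak from 74066381 to 74067094, with a score of 175, lay at the start of Fam125a. At Rsad2 a peak from 27120450 to 27121031 with a score of 145 lay between genes, downstream of the gene.

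The KAP1 peak of Ddx58 had the highest score of these, 259, above 75.2% of the list. It lay inside the gene from 40160944 to 40161540, over an exon and the start of an annotated transcript. The 5′ end of the gene was 25321 bp away. With any transcript start taken as a promoter, 2 of the 9 genes, Irf1 and Ddx58, had KAP1 at a promoter, and 18.9% of all genes did. With the 5′ end of the gene alone, Irf1 was the only one. No KAP1 peak of the 9 windows was in the SETDB1 list. Of all windows, 6.85% held a peak of that list, so that 0 of 9 is near the share of all genes. Isg15 and Ifit1, the genes with a gained or higher promoter peak in Kap1 KO, had their nearest KAP1 peaks at 37991 bp and 50231 bp. The median of that distance was 26964 bp over the 9 genes and 30881 bp over all genes.

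The 250 bases upstream of each gene's 5′ end were read from the mm9 genome to describe what the promoters share in sequence. The core of the ISRE was searched as GAAA, any pair of bases and GAAA again, and the gamma-activated site (GAS) as TTCNNNGAA, both on either strand. The letters of the ISRE core were found in 5 of the 9 promoters, those of Isg15, Ifit1, Ifit3, Bst2 and Rsad2, and in 3.37% of the 22380 promoters of the same length. All 5 effectors thus held them, and neither the sensors nor Irf1 and Irf7 did in this window. The letters of the GAS were found at Irf1 and Bst2, and in 6.83% of all promoters. At Bst2 the GAS overlapped an ISRE core. The promoter of Irf1 held 25 CG pairs, where the median over all genes was 8, those of Ddx58 and Ifih1 held 12 and 11, and the 5 effectors and Irf7 held between 1 and 6.

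The upstream bases of the effectors are shown because their H3K27ac differed in direction between the genotypes while all held the ISRE core. Each line is written 5′ to 3′ on the strand of the gene and ends at the base before its start, with the ISRE core letters of either strand in capitals. For Ifit1 the line is limited to the bases between its start and that of 2010002M12Rik. The regions on mm9 are chr4:155574928-155575177 on the minus strand for Isg15, chr19:34715234-34715360 on the plus strand for Ifit1, chr19:34657771-34658020 on the plus strand for Ifit3, chr8:74061337-74061586 on the minus strand for Bst2 and chr12:27141318-27141567 on the minus strand for Rsad2.
Isg15: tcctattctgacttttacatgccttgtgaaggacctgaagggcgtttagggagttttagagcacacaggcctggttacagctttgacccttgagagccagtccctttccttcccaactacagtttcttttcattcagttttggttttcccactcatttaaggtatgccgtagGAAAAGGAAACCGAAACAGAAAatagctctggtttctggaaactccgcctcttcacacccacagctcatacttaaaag
Ifit1: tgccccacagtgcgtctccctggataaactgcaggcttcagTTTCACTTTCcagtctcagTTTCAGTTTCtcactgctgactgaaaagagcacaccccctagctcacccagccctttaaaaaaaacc
Ifit3: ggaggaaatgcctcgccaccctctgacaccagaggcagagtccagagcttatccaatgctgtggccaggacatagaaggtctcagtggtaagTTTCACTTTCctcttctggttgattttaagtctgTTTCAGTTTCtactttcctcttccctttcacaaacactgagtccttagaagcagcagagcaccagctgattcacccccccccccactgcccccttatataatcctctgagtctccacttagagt
Bst2: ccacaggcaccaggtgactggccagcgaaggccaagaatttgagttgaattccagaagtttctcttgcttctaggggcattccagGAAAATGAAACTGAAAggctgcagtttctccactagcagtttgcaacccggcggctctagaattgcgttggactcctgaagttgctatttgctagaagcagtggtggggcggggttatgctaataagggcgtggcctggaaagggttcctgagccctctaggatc
Rsad2: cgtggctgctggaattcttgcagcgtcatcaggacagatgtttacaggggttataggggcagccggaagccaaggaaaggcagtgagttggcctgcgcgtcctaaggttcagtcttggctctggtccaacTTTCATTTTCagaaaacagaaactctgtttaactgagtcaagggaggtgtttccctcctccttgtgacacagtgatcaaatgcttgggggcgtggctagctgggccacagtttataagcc

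In these lines Isg15 has 3 overlapping matches in 1 run, between 78 and 57 bases upstream of the start, and the run lies inside the Kap1 KO only peak. Ifit1 and Ifit3 have 2 separate matches each, on the other strand, Bst2 has 2 overlapping ones and Rsad2 has 1. The matches of Ifit1, Ifit3 and Bst2 lie inside the promoter peaks of both genotypes. The motif letters are a description of the sequence, and occupancy by transcription factors was not analysed here.

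To place the 9 genes in their pathway, 90 other genes were taken from lists by role. Of these, 59 had a promoter peak in both genotypes, 1 in WT only, 4 in Kap1 KO only and 26 in neither. The gene in WT only was Il28ra, a receptor of lambda interferons, with a score of 1378.73. All 4 in Kap1 KO only were effectors, namely Mx2, Oas1a, Oas3 and Oasl2, with scores of 348.72, 130.31, 339.11 and 85.27 and ranks of 41.1%, 20.9%, 40.5% and 11.6%. Mx2 is an antiviral GTPase, and the Oas genes encode enzymes of the oligoadenylate system, which activates RNase L. Oas1a and Oas3 lie near each other on chromosome 5, between 121203107 and 121357536, so they are not independent. With Isg15, 5 of the 32 effectors were in Kap1 KO only, against 1.36% of all genes, and 19 had a promoter peak in both genotypes, against 51.9%. The effector list was chosen with earlier results of these data known, so this contrast is a description and not an independent check. The 5 peaks all had ranks under 50%, so that none of them stays when only the upper 50% of scores is kept. The effector list was not recounted with that setting, in which other effectors change state too. None of the 10 interferon genes of the ligand list had a promoter peak in either genotype, and Ifnb1 was among them. Over all genes, 54.5% had one in WT and 53.3% in Kap1 KO. The windows of 2 of the 10 did hold H3K27ac peaks away from the promoter. These were Ifnb1, with 6025 bp in WT and 6093 bp in Kap1 KO, and Ifnk, with 1811 and 1058 bp.

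**Figure D3:**
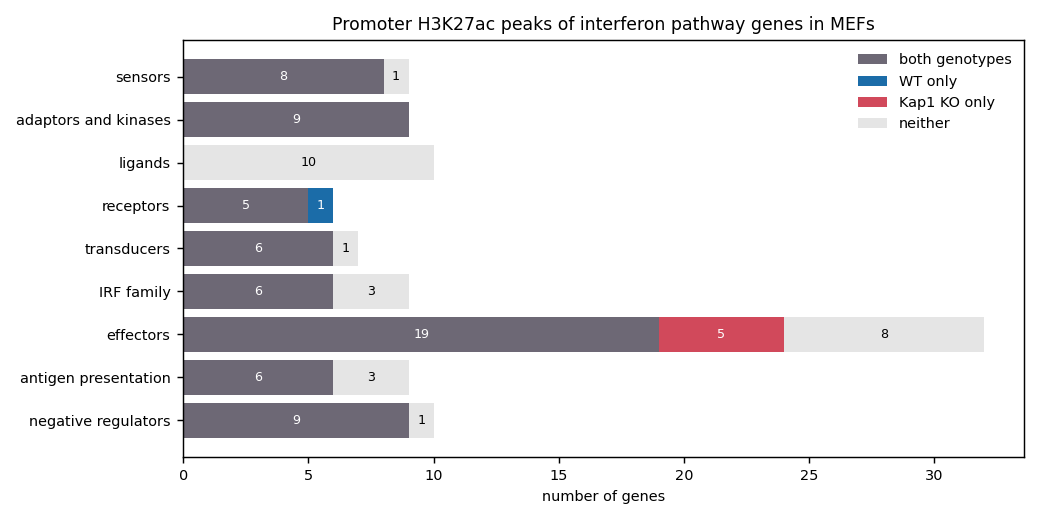
Number of genes of each role list by promoter H3K27ac state in MEFs, where the lists include the members and a gene may stand in more than 1 list. Of these lists the effectors, which are the longest, have 5 of 32 genes in Kap1 KO only, and the other lists have 0. All lists were chosen with earlier results of these data known.

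The effectors differed in direction. Among the 19 with a promoter peak in both genotypes, the score was lower in Kap1 KO at 8, higher at 6 and equal at 5, where 82.7% of all genes with unequal scores were lower. By rank, among the 12 with both scores under 3100, 5 were lower and 7 higher in Kap1 KO, against 59.4% lower over all genes. Of the 29 effectors with a peak in the window, bases under H3K27ac peaks were higher in Kap1 KO past 1.5-fold at 9 and lower at 4, against 10.8% and 14.3% of all genes with a peak. These genes are not independent, since Rsad2 and Cmpk2 were called higher through the same peak and the windows of Ifit2 and Ifit3, both called lower, share WT only peaks. Oas1a and Oas3, also called higher, lie near each other on chromosome 5. Gbp2 and Gbp3, called higher too, lie near each other on chromosome 3. These counts include 5 of the 9 members, and no test of them was made. Chosen after their values were seen, Xaf1 had scores of 77.82 in WT and 633.32 in Kap1 KO, with ranks of 9.17% and 51.5%. Its WT peak lies under the cutoff of 80, with which Xaf1 would count as Kap1 KO only. The same holds for Cxcl10, with scores of 65.05 and 86.64, and the count of 5 of 32 effectors was made without that cutoff. Gbp3 had 656.98 and 1513.17, with ranks of 49.3% and 65.3%, and Irf9, a transcription factor of the interferon response, had 420.88 and 1419.9, with ranks of 42.4% and 64.3%. These genes had a higher score and rank in Kap1 KO, as Ifit1 did.

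The signalling genes upstream mostly had a promoter peak in both genotypes. This was the case for 8 of 9 sensors, 9 of 9 adaptors and kinases, 5 of 6 receptors, 6 of 7 transducers and 6 of 9 genes of the IRF family, beside 51.9% of all genes. Of the receptors, bases under peaks were lower in Kap1 KO past 1.5-fold at 3 of 6 and higher at 0. The 3 were Ifnar1, Ifngr2 and Il28ra. Ifnar1 and Ifngr2 are not independent, since they lie together with Ifnar2 and Il10rb on chromosome 16 between 91373028 and 91565414. Il28ra lies on chromosome 4. Of the adaptors and kinases, bases under peaks were higher past 1.5-fold at 3 of 9 and lower at 0. Over all genes with a peak, 10.8% were higher and 14.3% lower. Mavs, the adaptor of both sensors described above, had scores of 2560.06 and 1833.64 with ranks of 68.8% and 68.4%, and its bases under peaks went from 2524 to 4725 with 2 Kap1 KO only peaks. Of antigen presentation genes, 6 of 9 had a promoter peak in both genotypes, and of negative regulators 9 of 10, with 0 in one genotype only.

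Among the 90 other genes, a WT H3K9me3 peak lay in the window of 15, and a Kap1 KO peak in that of 1. The share of all genes was 19.0% in WT and 3.36% in Kap1 KO. The gene with a Kap1 KO peak was Ifng, with 9 Kap1 KO H3K9me3 peaks and no WT peak, and with no H3K27ac peak in either genotype. It lies in a stretch of chromosome 10 with 278 Kap1 KO and 33 WT H3K9me3 peaks within 1 Mb on both sides of the gene. None of the 4 effectors with a promoter peak in Kap1 KO only had an H3K9me3 peak in its window in either genotype. Of these 4, Oasl2 had KAP1 peaks in its window in Hepa 1.6 cells, 3 in number, with 1 at its promoter and 1 in the SETDB1 list, and the others had none. A KAP1 peak lay in 28 of the 90 windows and at 16 of the 90 promoters, beside 35.8% and 18.9% of all genes.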

How the data were processed

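The authors deposited, for each library, peak positions with a score. Per the submitters' processing notes and the methods, reads were mapped to mm9 with Bowtie2 2.2.1 and MACS 1.4 called the peaks, with total input as control. A score cutoff of 80 is stated, while the MEF lists go down to scores of 50 to 50.03, and all deposited peaks were used. Starts are counted from 1. Genes, transcript starts and exons came from GENCODE vM1 on mm9, and a gene without a peak may still carry signal under the threshold. The 9 members and all gene lists were chosen with earlier results of these data known. Mb21d1 and Ifi27 were matched to E330016A19Rik and Ifi27l1 through RefSeq. Ifi27 is also a synonym of Ifi27l2a there, so that this match, which counts among the effectors with a higher score and rank in Kap1 KO, is ambiguous. Other genes were named when their promoter had a peak in a single genotype or their window an H3K9me3 or KAP1 peak, the first 25 by alphabet, and otherwise by list order, up to 4 per list, unless said otherwise. Counts of members stand beside the share of all protein-coding genes in place of a test, since each condition had 1 library. Overlaps were computed with Python 3.11.15, pandas 2.3.3 and numpy 2.4.6, tested on simulated data and checked against bedtools 2.31.1, where 0 of 134280 counts of peaks per window differed. Sequences were read with pysam 0.24.0, and plots were drawn with matplotlib 3.10.9.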

Additional observations from a re-analysis of the deposited data

How the results depend on the processing

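Under 11 alternative settings, 79 values of the main counts were recomputed, and 61 stayed within 1.5 times the main value, 17 did not and 1 reversed. The bases under H3K27ac peaks in the 9 windows had ratios of Kap1 KO to WT between 0.769 and 0.921 under other peak filters and flanks. The ratio was 1.04 without Ifit3 and Bst2, the windows with the lowest ratios, a setting added after seeing the data. Isg15 was in Kap1 KO only under every promoter width, with a score of at least 80 and with equal numbers of peaks. It was not when lists were reduced to the upper 50% of their scores. Then 3 members had a promoter peak in both genotypes, 2 in WT only (Ifit3 and Bst2), 0 in Kap1 KO only and 4 in neither, and the windows held 8 WT and 6 Kap1 KO peaks, of which 2 were WT only and 0 Kap1 KO only, and 0 members had more bases under peaks in Kap1 KO past 1.5-fold. With a score of at least 80, or with equal numbers of peaks, 1 member was in WT only, Irf7. With equal numbers of peaks, a setting added for H3K9me3 after seeing the data, 0 windows held a WT H3K9me3 peak. With 5 kb on both sides, 3 peaks were WT only, 2 windows held a KAP1 peak and 1 member, Ifit3, had fewer bases under peaks in Kap1 KO past 1.5-fold. With 20 kb, 2 windows held a WT H3K9me3 peak, the added one being that of Irf1. With only the 5′ end of a gene as its start, 1 member had KAP1 at the promoter. The depth of the libraries is unknown, so that a peak found in one genotype may lie under the threshold in the other. No paired analysis was possible because each genotype had 1 library per mark.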
